A study of Mus musculus with 6 samples.

Results

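Carboxylesterases are serine hydrolases that cut ester and amide bonds. In the liver most of them sit in the lumen of the endoplasmic reticulum (ER), where they hydrolyse ester drugs and pesticides as well as neutral lipids, retinyl esters and cholesteryl esters. Mouse carries the genes in tandem arrays of subfamilies, named Ces1, Ces2, Ces3 and so on. Examined here were 10 carboxylesterase genes expressed in liver, Ces1c, Ces1d, Ces1e, Ces1f, Ces1g, Ces2a, Ces2c, Ces2e, Ces3a and Ces3b, taken by gene symbol out of the 17975 genes of the table. All 10 had enough reads to be tested.

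RNA was sequenced from whole liver tissue of 3 wild-type (WT) mice and 3 homozygous hepatocyte NEK7 knock-out (Hom) mice, 1 liver per mouse. Hom mice were NEK7 fl/fl-Alb-Cre+ on the C57BL/6 background, with Cre driven by the albumin promoter, so that deletion is directed to hepatocytes. Whether other liver cells kept the gene was not measured in this bulk tissue. The WT controls are named wild-type, with no further statement on Cre or floxed alleles in the sources used here. By the study's reporting summary, mice in general were young adults. Both sexes were used in knock-out work, and controls were matched for sex and age. The study also describes liver fibrosis and inflammation in older Hom mice of this line. The sources used here do not give the age or sex of each sequenced mouse, so its stage of liver disease is not known. The study introduced these livers to ask which genes are affected when hepatocytes lose NEK7, a kinase related to the NIMA mitotic kinases.

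The libraries held between 19349418 and 19730236 estimated reads on genes. Nek7 had 1127, 1077 and 1036 reads in the WT livers and 310, 439 and 387 in the Hom livers (values of single livers are given in the order of replicates 1 to 3 throughout), a log2 fold change of −1.99 (SE 0.10, edgeR adjusted p = 1.59e-04). The hepatocyte gene Alb (albumin) was at 96360 CPM (normalized read counts scaled to a fixed library total) or more in every WT liver and at 39610 CPM or more in every Hom liver. Of 13805 genes tested, 2780 were lower in Hom than in WT and 2974 higher (adjusted p under 0.05). With library size alone in place of the trimmed-mean (TMM) factors, which were 0.806 to 0.924 in WT and 1.09 to 1.23 in Hom livers, this split became 642 lower and 6574 higher, and the all-gene median of the log2 fold change went from −0.00175 to 0.45. Fold changes below are therefore relative to the TMM reference, and scalings that turn the direction of a member or of a list's median, or end a member's call, are named beside it. Hom replicate 1 stood apart from the other libraries in Y-linked genes: Ddx3y and Kdm5d had 0 reads there, Eif2s3y 4 and Uty 149, against at least 630, 243, 582 and 464 reads in each of the other 5 livers. Near absence of Y-linked reads is what a female liver gives, so this mouse may differ in sex from the others.

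The members form 2 arrays on chromosome 8 of GRCm38 in the GENCODE M21 annotation. The submitters' processing notes name the older build mm9, and the deposited table holds no coordinates. The Ces1 array lies on the minus strand, with Ces1c at chr8:93099015-93131283, Ces1d at chr8:93166068-93197838, Ces1e at chr8:93201218-93229619, Ces1f at chr8:93256236-93279747 and Ces1g at chr8:93302369-93337308. The other array lies on the plus strand, with Ces2a at chr8:104734003-104741634, Ces2c at chr8:104847068-104854483, Ces2e at chr8:104926260-104934672, Ces3a at chr8:105048601-105058413 and Ces3b at chr8:105083753-105093929. All are protein-coding genes of 12 to 14 exons. The table identifies them by NCBI Gene number, which is 13884 for Ces1c, 104158 for Ces1d, 13897 for Ces1e, 234564 for Ces1f, 12623 for Ces1g, 102022 for Ces2a, 234671 for Ces2c, 234673 for Ces2e, 382053 for Ces3a and 13909 for Ces3b.

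What holds a carboxylesterase in the ER is the end of the protein, a short motif that KDEL receptors recognise and return from the Golgi. The ends of the 10 coding sequences, from GENCODE M21 transcripts, are shown because this motif is what tells an ER enzyme from a secreted one. Each is given 5′ to 3′ as the last 10 codons and the stop codon, with the last 4 codons in capitals.
Ces1c: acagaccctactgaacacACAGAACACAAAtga
Ces1d: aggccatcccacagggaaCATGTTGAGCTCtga
Ces1e: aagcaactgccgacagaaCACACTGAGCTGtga
Ces1f: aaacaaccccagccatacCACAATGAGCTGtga
Ces1g: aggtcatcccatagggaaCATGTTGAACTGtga
Ces2a: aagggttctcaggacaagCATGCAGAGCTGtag
Ces2c: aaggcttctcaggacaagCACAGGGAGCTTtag
Ces2e: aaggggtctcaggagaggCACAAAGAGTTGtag
Ces3a: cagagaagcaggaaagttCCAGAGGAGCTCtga
Ces3b: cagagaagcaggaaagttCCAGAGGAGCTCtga
In 9 of the 10 genes the final codons spell glutamate and leucine, and in 7 of them the capitals open with a histidine codon. Ces1c is the exception and lacks both, and its product is known as the carboxylesterase of mouse plasma. The ends of Ces3a and Ces3b were identical over the stretch shown.

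The catalytic serine lies in a motif that all 10 genes share, a glycine codon, any codon, the serine codon, any codon and a glycine codon. The codon before the serine differs, and spells glutamate in Ces1f and Ces1g, valine in Ces2a and asparagine in Ces3a. A stretch of 4 members, 1 from each of the Ces2 and Ces3 subfamilies and the neighbours Ces1f and Ces1g, is shown with the serine codon in capitals. This serine is codon 221 of Ces1f and Ces1g, 227 of Ces2a and 232 of Ces3a.
Ces1f: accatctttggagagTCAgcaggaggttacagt
Ces1g: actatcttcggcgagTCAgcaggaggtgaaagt
Ces2a: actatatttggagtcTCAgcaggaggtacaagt
Ces3a: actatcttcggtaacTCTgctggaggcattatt
Over the whole coding sequence, identity was 73.6% to 81.5% among the 5 Ces1 members, 82.6% to 83.7% among the 3 Ces2 members and 95.3% between Ces3a and Ces3b, and between subfamilies it was 58.8% to 62.0%.

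Such likeness bears on how far reads can be assigned to 1 gene. Of all stretches of 100 bases in the transcript, 9.09% of those of Ces3a also occurred in Ces3b and 7.68% of those of Ces3b in Ces3a. Ces2c shared 16.0% of its stretches with other genes, most with Ces2d-ps, Ces2a shared 10.7% with Gm7208, and Ces1c shared 1.39% with Ces1b. Ces1d, Ces1e, Ces1f, Ces1g and Ces2e shared none at this length. Read length is not given in the sources used here, and with stretches of 50 bases the shares were larger, at 42.2% for Ces2c, 30.9% for Ces3a, 26.1% for Ces3b, 22.2% for Ces2a, 17.0% for Ces1c and 1.28% to 3.36% for the others. Ces2d-ps and Gm7208 are not rows of the table, so reads of these genes could have been counted on Ces2c and Ces2a. The values of Ces3a, Ces3b, Ces2a, Ces2c and, to a lesser degree, Ces1c are therefore uncertain.

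Of the 10 carboxylesterases, 8 were lower in Hom livers and none was higher, where 20.1% of all genes tested were lower and 21.5% higher. The 8 were Ces1c, Ces1d, Ces1e, Ces1f, Ces2a, Ces2e, Ces3a and Ces3b, and Ces1g and Ces2c did not pass the test. For each of the 8, all 3 Hom livers lay below all 3 WT livers in CPM, as did 27.0% of all genes, and none of the 10 had all Hom livers above, as did 28.7% of all genes (exact two-sided permutation test, p = 0.1 for each of the 8, the smallest that 3 mice against 3 allow). The drop was at least 1 on the log2 scale in 6 members, against 4.17% of all genes, and at least 2 in 5 members, against 1.11%. The median log2 fold change of the 10 was −2.06. As no WT mouse is stated to carry Cre, the effect of Cre and that of Nek7 loss cannot be told apart.

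**Figure D1:**
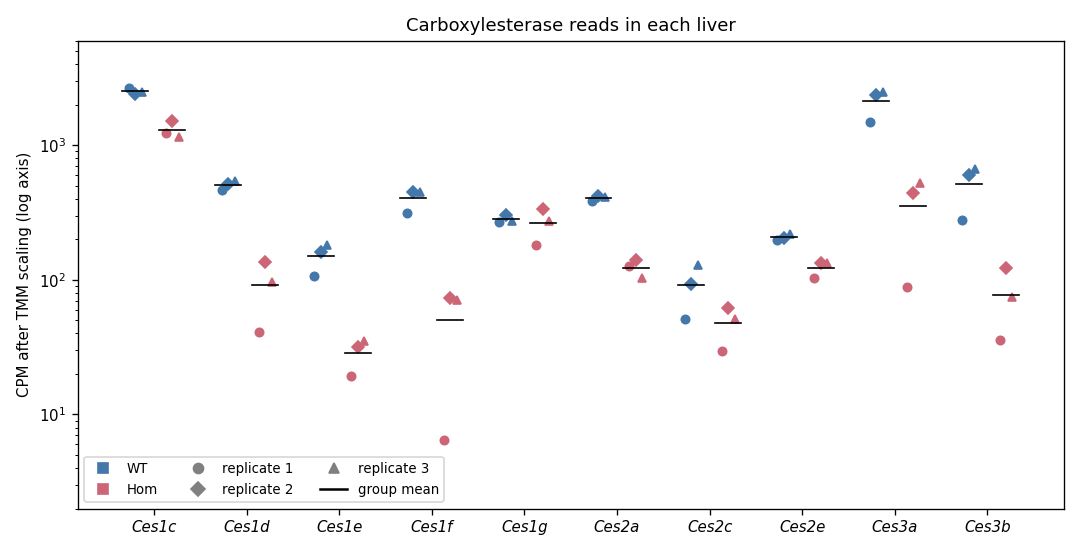
CPM of each carboxylesterase on a log scale in the 3 WT and 3 Hom livers (TMM-normalized; points are single livers, bars the group means). Both groups overlap for Ces1g and Ces2c only, and the lowest Hom point of Ces1f, at 6.44 CPM, belongs to Hom replicate 1.

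Ces1d, also named triacylglycerol hydrolase, frees stored triglyceride for assembly into very low density lipoprotein (VLDL). Its level was 465, 515 and 546 CPM in the WT livers and 40.7, 136 and 96.5 CPM in the Hom livers. The groups were far apart, with Hom replicate 1 the lowest. The mean went from 508 ± 40.6 to 91.1 ± 47.9 CPM (SD, n = 3 mice each), a log2 fold change of −2.48 (SE 0.40, edgeR quasi-likelihood test, adjusted p = 0.00384 by Benjamini-Hochberg over all genes, as for every edgeR p here).

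Ces1e is egasyn, which binds β-glucuronidase and keeps part of it in the ER. The WT livers had 108, 161 and 182 CPM of Ces1e, and the Hom livers had 19.2, 31.6 and 34.9 CPM. Replicate 1 was lowest in both groups, without overlap between them. Ces1e fell to 19.0% of the WT mean (log2 fold change −2.40, SE 0.28, edgeR adjusted p = 0.00122). Gusb, which encodes β-glucuronidase, rose from 28.2 ± 2.32 to 52.2 ± 11.1 CPM (SD, n = 3 mice each, log2 fold change 0.89, SE 0.16, edgeR adjusted p = 0.00520).

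Ces1f had the largest fall of the 10. Its CPM was 316, 449 and 452 in the WT livers and 6.44, 72.8 and 71.1 in the Hom livers, from 138 reads in Hom replicate 1. Hom replicates 2 and 3 were close together, while their mean was 11.2 times the value of replicate 1, a log2 gap of −3.48 that 0.0797% of all tested genes reached or passed. Over the 3 livers Ces1f fell to 12.4% of the WT mean, with a log2 fold change of −3.02 and the widest error of any member (SE 0.78, edgeR adjusted p = 0.0208). Without Hom replicate 1 it was −2.50 (edgeR adjusted p = 0.00113), and the call was lost without WT replicate 2 (edgeR adjusted p = 0.0587) or without Hom replicate 3 (edgeR adjusted p = 0.0519).

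Ces1g, a Ces1 enzyme known to limit liver triglyceride, did not follow its neighbours. It was at 271, 304 and 273 CPM in WT livers and at 181, 338 and 276 CPM in Hom livers. The Hom livers held both the lowest and the highest of the 6 values. The log2 fold change was −0.09 (SE 0.22, edgeR adjusted p = 0.758; exact two-sided permutation test, p = 0.9). Its sign turned under library size alone (0.39), upper-quartile factors (5.8e-05), the TPM scale (0.48 and 0.49 with pseudocounts of 1 and 0.1) and without Hom replicate 1 (0.12), and in none of these did it pass the test.

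Ces1c, the plasma carboxylesterase, was the most abundant member. WT livers had 2673, 2414 and 2478 CPM and Hom livers 1227, 1506 and 1159 CPM. The 3 livers of each group lay close together, and Hom replicate 1 was not the lowest here. Ces1c fell to 51.5% of the WT mean (log2 fold change −0.96, SE 0.16, edgeR adjusted p = 0.00411). This call was lost with library size alone (−0.50, edgeR adjusted p = 0.0539) and on the TPM scale (−0.34 with either pseudocount).

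Enzymes of the Ces2 subfamily prefer esters with a small acyl group and a bulky alcohol, and are known from intestine and liver. Ces2a was at 384, 422 and 411 CPM in WT and at 127, 140 and 104 CPM in Hom livers, well apart and with little spread within groups. It fell by 1.72 on the log2 scale (SE 0.13), with the smallest adjusted p of the 10 (edgeR, 3.84e-04). Ces2e was at 199, 205 and 218 CPM in WT and at 103, 133 and 134 CPM in Hom livers. Its fall to 59.5% of the WT mean was the smallest of the 8 (log2 fold change −0.75, SE 0.12, edgeR adjusted p = 0.00391) and was not past the threshold with library size alone (−0.28, edgeR adjusted p = 0.165) or on the TPM scale (−0.14).

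Ces2c, which hydrolyses acylglycerols and acylcarnitines, varied most among WT livers relative to its level, at 51.6, 94.0 and 128 CPM. Hom livers had 29.9, 62.1 and 51.4 CPM, so that WT replicate 1 fell within the Hom range. The log2 fold change was −0.93 (SE 0.37, edgeR adjusted p = 0.0836; exact two-sided permutation test, p = 0.2). The call changed with the setting: it was past the threshold with DESeq2 (adjusted p = 0.0215), with edgeR without WT replicate 1 (−1.22, adjusted p = 0.0237) and with edgeR and the replicate number as a block (−0.90, adjusted p = 0.0142).

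Ces3a and Ces3b, the near-identical pair, fell together. Ces3a was at 1497, 2373 and 2501 CPM in WT livers and at 87.8, 441 and 529 CPM in Hom livers. Replicate 1 was the lowest of its group on both sides, and the groups were far from overlapping. The mean of Ces3a went from 2124 ± 547 to 353 ± 234 CPM (SD, n = 3 mice each, log2 fold change −2.59, SE 0.62, edgeR adjusted p = 0.0159). Ces3b was at 279, 607 and 664 CPM in WT and at 35.9, 122 and 75.2 CPM in Hom livers. Its mean in Hom was 15.1% of that in WT (log2 fold change −2.73, SE 0.51, edgeR adjusted p = 0.00631).

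Hom replicate 1 was the lowest Hom liver for 8 of the 10 members, all but Ces1c and Ces2a, against 39.4% of all genes. The mean of the other 2 Hom livers was 5.52 times its value for Ces3a, 2.85 times for Ces1d and 2.75 times for Ces3b. Without it the same 8 members were lower, with log2 fold changes of −2.13 for Ces1d, −2.18 for Ces1e, −2.13 for Ces3a and −2.39 for Ces3b. Whether sex has a part in these values was not tested, and with 1 such mouse it cannot be told apart from other differences of this liver.

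Setting genes against each other needs values per transcript length, for which the deposited TPM (transcript abundance per length, scaled to a fixed sum in each liver) were used. TPM are shares within a liver, so a fall in CPM need not be a fall in TPM of like size. In WT livers the order was Ces1c (2040 ± 345 TPM; SD, n = 3 mice, as for all TPM here), Ces3a (1540 ± 253), Ces3b (390 ± 140), Ces1d (381 ± 18.3), Ces1f (309 ± 28.2), Ces2a (305 ± 19.7), Ces1g (181 ± 16.2), Ces2e (149 ± 12.2), Ces1e (106 ± 17.6) and Ces2c (66.6 ± 23.3). Neighbours in this order overlapped in 3 of 9 pairs, namely Ces3b with Ces1d, Ces1f with Ces2a, and Ces1e with Ces2c.

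In Hom livers the order was Ces1c (1610 ± 314 TPM), Ces3a (414 ± 281), Ces1g (266 ± 95.3), Ces2a (143 ± 25.1), Ces2e (137 ± 28.4), Ces1d (108 ± 61.7), Ces3b (97.5 ± 59.6), Ces1f (61.6 ± 47.3), Ces2c (56.0 ± 22.4) and Ces1e (31.8 ± 10.8). Here 8 of 9 neighbouring pairs overlapped, and only Ces1c stood clear of the next. By mean, Ces1g went from rank 7 to rank 3, Ces3b from 3 to 7 and Ces1f from 5 to 8.

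**Figure D2:**
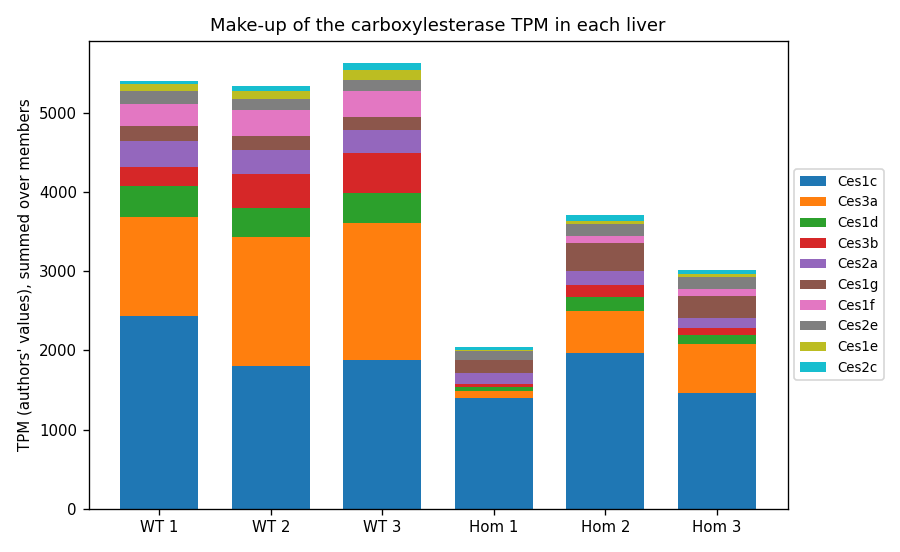
TPM of the 10 carboxylesterases on a log scale in WT and Hom livers, per transcript length (points are single livers, bars the group means). By group mean, Ces1c and Ces3a led in both groups, and Ces1g rose in rank from 7 to 3.

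The make-up of the family pool differed between the groups. The 10 members together held 5413, 5349 and 5639 TPM in the WT livers and 2038, 3718 and 3024 TPM in the Hom livers, which did not overlap. The secreted Ces1c made up 37.3% of this pool in WT livers and 56.7% in Hom livers as group means, Ces3a 28.2% and 13.1%, and Ces1g 3.33% and 8.95%. In reads, the 10 members took 0.576% to 0.656% of a WT library and 0.202% to 0.368% of a Hom library.

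Ratios of 2 members within a liver do not depend on scaling between libraries. They were picked after the values were seen and are given as a description. The ratio of Ces1g to its neighbour Ces1f was 0.715, 0.564 and 0.504 in WT livers and 23.4, 3.87 and 3.23 in Hom livers. For Ces2e over Ces2a the ratio was 0.495, 0.465 and 0.509 in WT and 0.769, 0.913 and 1.23 in Hom livers. In both ratios every Hom liver lay above every WT liver, so that the members of each pair changed unequally.

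**Figure D3:**
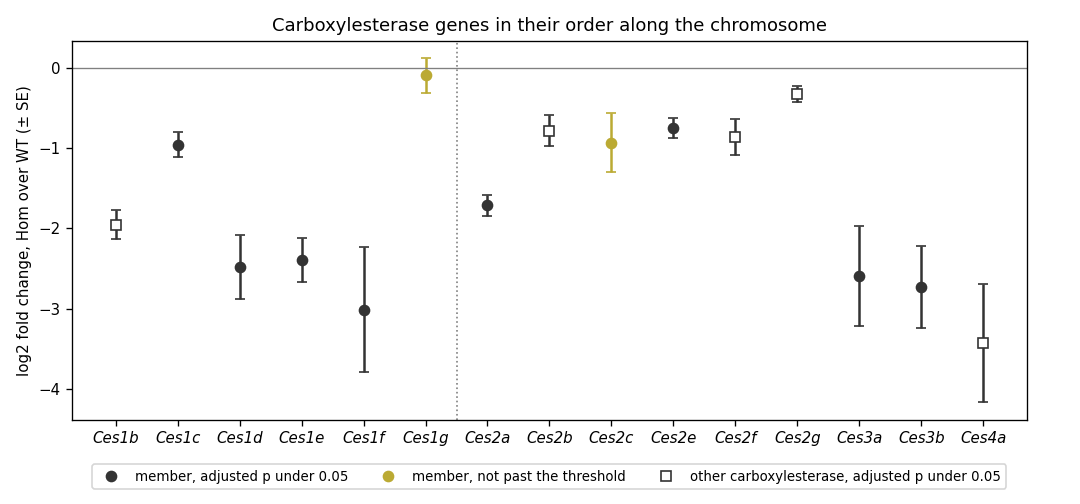
Log2 fold change of Hom over WT livers (± SE, edgeR) for the 15 tested carboxylesterases in chromosomal order, with the 2 arrays parted by a dotted line. Ces1g, at −0.09, sits next to Ces1f, at −3.02.

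Other carboxylesterases that could be tested were lower too. Of the 9 other carboxylesterase genes listed, 8 were rows of the table and 5 had enough reads. All 5 were lower (median log2 fold change −0.86), against 20.1% of all genes tested, and 2 of the 5 passed with library size alone. Ces1b had 77.2, 79.0 and 70.9 CPM in WT and 24.9, 18.6 and 15.2 CPM in Hom livers, which are far apart (log2 fold change −1.95, SE 0.18, edgeR adjusted p = 5.52e-04). Ces4a was scarce, with 21, 37 and 100 reads in WT and 10, 7 and 3 reads in Hom livers (log2 fold change −3.44, SE 0.74, edgeR adjusted p = 0.0105). Its fold change was −2.57 without WT replicate 3 and −1.08 on the TPM scale with a pseudocount of 1, past the threshold in both.

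Calls were less firm for 3 genes of the Ces2 subfamily. Ces2f (−0.86, edgeR adjusted p = 0.0211) and Ces2b (−0.78, edgeR adjusted p = 0.0189) were under 5 CPM in every liver, and neither was called with library size alone or on the TPM scale. Ces2g fell from 66.3 to 52.8 CPM (−0.33, edgeR adjusted p = 0.0308), and its sign turned with library size alone (0.13) and on the TPM scale (0.35 and 0.36), while upper-quartile factors ended the call (edgeR adjusted p = 0.0916). With 1 liver left out, the Ces2g call held only without WT replicate 2 (edgeR adjusted p = 0.0378). Ces2f and Ces2b lost their calls in some of these fits and with the replicate number as a block. Ces1a, Ces1h and Ces2h had 12 reads or fewer in every liver and were not tested.

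Other hydrolases were compared with the carboxylesterases from lists written with earlier results of these data known. Of 17 tested lipid and retinyl ester hydrolases, 7 were lower and 3 higher (median log2 fold change −0.15, turned to 0.31 with library size alone and to 0.44 and 0.46 on the TPM scale), and 3 of the 7 passed with library size alone. The largest falls were of Mgll, monoglyceride lipase (−1.68, edgeR adjusted p = 3.58e-04), Abhd6, another monoacylglycerol lipase (−1.45, edgeR adjusted p = 0.00120), Aadac, arylacetamide deacetylase of the ER (−1.27, edgeR adjusted p = 0.00103), and Lipg, endothelial lipase (−1.02, not past the threshold with library size alone or on the TPM scale). Lpl, lipoprotein lipase, rose from 40.4 ± 4.56 to 203 ± 16.2 CPM (SD, n = 3 mice each, log2 fold change 2.33, edgeR adjusted p = 1.37e-04), Abhd2 rose by 1.60, and Pnpla2, adipose triglyceride lipase, rose by 0.24.

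Among 13 other enzymes that hydrolyse xenobiotics and esters, 7 were lower and 1 was higher (median −0.34). Pon1, the paraoxonase that liver secretes into plasma, fell from 741 ± 49.3 to 228 ± 62.0 CPM (SD, n = 3 mice each, log2 fold change −1.70, edgeR adjusted p = 0.00158). Afmid, kynurenine formamidase, fell by 1.47 on the log2 scale, Ephx2, soluble epoxide hydrolase, by 1.46, and Bphl, a valacyclovir hydrolase, by 0.86, a call lost on the TPM scale. Bche, butyrylcholinesterase, rose by 0.69. Of 12 genes of VLDL assembly and ER triglyceride handling, 7 were lower and none was higher (median −0.51), with the largest fall in Plin5, a lipid droplet coat protein (−1.12, edgeR adjusted p = 0.00296). The median of the xenobiotic and ester hydrolases turned positive with library size alone (0.11) and on the TPM scale (0.19 and 0.28), that of the VLDL genes on the TPM scale (0.11 with either pseudocount), and with library size alone 4 of 7 and 2 of 7 of their lower calls still passed.

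Regulators of liver gene expression that have been tied to carboxylesterases were taken as a further list. Of 18 tested, 9 were lower and 2 higher (median −0.39, turned to 0.073 with library size alone and to 0.24 on the TPM scale), and 3 of the 9 passed with library size alone. Nr1i3, the nuclear receptor CAR, which drives drug metabolism genes, was at 87.7 ± 5.20 CPM in WT and 43.2 ± 1.54 CPM in Hom livers (SD, n = 3 mice each, log2 fold change −1.02, edgeR adjusted p = 3.73e-04). Nr0b2, the repressor SHP, fell by 1.35, Ppara, the fatty acid receptor, by 1.30 and Foxa1 by 0.98 on the log2 scale, Foxa1 not past the threshold under any other scaling. Nr1i2, the pregnane X receptor, was lower (−0.51, edgeR adjusted p = 0.0156), with its call lost with library size alone and its sign turned on the TPM scale (0.12), and Hnf4a, the hepatocyte nuclear factor, was lower too (−0.69, edgeR adjusted p = 0.00745) but not with library size alone or on the TPM scale. Nr1h4, the bile acid receptor FXR, gave −0.20 (edgeR adjusted p = 0.0630). Its sign turned with library size alone (0.25, not past the threshold) and on the TPM scale (0.41 and 0.42, past the threshold as higher). Nfe2l2 and Srebf1 rose by 0.76 and 0.68.

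Of the 4 genes tied to ER retention, Kdelr2, a KDEL receptor, was lower (−0.48, edgeR adjusted p = 0.0196; call lost with library size alone, 0.14 on the TPM scale), Kdelr3 rose by 2.82 from 0.259 to 1.88 CPM, and Gusb rose as given above.

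Markers of liver cell types moved too. In bulk tissue, fewer hepatocytes and less RNA per hepatocyte cannot be told apart. Of 34 hepatocyte markers, 22 were lower and 2 higher (median −0.69, 11 of the 22 past the threshold with library size alone, summed level 226000 to 266000 CPM in WT and 136000 to 203000 CPM in Hom livers), with the largest fall in Cyp2e1 (−2.95) and the largest rise in Cyp7a1 (2.12), the rate-limiting enzyme of bile acid synthesis. On the TPM scale, only Apoa2, Ttr, G6pc, Fabp1 and Cyp2e1 of these markers passed as lower, while Trf, Hp, Hpx and Cyp7a1 passed as higher. With TMM factors, falls of at least 2 on the log2 scale were seen in 2 of the 34 and in 5 of the 10 carboxylesterases.

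Cholangiocyte markers, which mark bile duct cells, were higher in 10 of 12 cases (median 3.02, summed 76.7 to 107 CPM in WT and 687 to 930 CPM in Hom livers), with the largest rise in Prom1 (4.78). Stellate and fibroblast markers were higher in 9 and lower in 2 of 15 (median 1.53, summed 360 to 422 CPM and 782 to 851 CPM), from Col1a1 (3.32) to Reln (−1.55). Macrophage markers split, with 3 lower and 4 higher of 13 (Cd163 −2.89, Trem2 3.31, summed 254 to 629 CPM and 347 to 471 CPM). Of 12 endothelial markers 4 were lower and 1 was higher (median −0.21, Clec4g −2.13, Vwf 1.59, summed 285 to 377 CPM and 251 to 259 CPM). The endothelial median turned positive with library size alone and on the TPM scale. With library size alone 2 of the 4 lower calls passed, and Pecam1 (0.53), Stab1 (0.42) and Emcn (0.63) passed as higher. The part of these shifts in the carboxylesterase values was not tested.

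Of markers of other cell types, most lymphocyte and erythroid ones could be tested, but few adipocyte and pancreas acinar ones. Lymphocyte markers gave 2 higher of 8 (Cd3e 1.74, with overlap between the groups, summed 6.99 to 11.2 CPM in WT and 9.80 to 17.3 CPM in Hom livers). Erythroid markers gave 1 lower of 5 (Alas2 −1.67, summed 434 to 1120 CPM and 547 to 1680 CPM). Among adipocyte markers Fabp4 alone was tested and rose (1.51, summed 5.42 to 9.52 CPM and 14.2 to 21 CPM), with Adipoq at 5 reads or fewer and Plin1 at 2 or fewer in every liver. Of pancreas acinar markers, 2 were tested and Cela1 was lower (−2.31, summed 9.21 to 27.6 CPM and 3.17 to 5.22 CPM).

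Over the 6 livers, the log2 CPM of 3 other genes followed Ces1c, the member with the highest mean TPM, most closely among 8260 genes of at least 10 CPM. They were Mri1 (Pearson r = 0.9986), Gstt1 (0.9975) and Acp5 (0.997), a description over 2 groups of 3 that share the libraries. Gstt1, a glutathione S-transferase, went from 259 to 152 CPM (log2 fold change −0.77). Among the members, r with Ces1c was 0.983 for Ces2a and 0.356 for Ces1g.

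**Figure D4:**
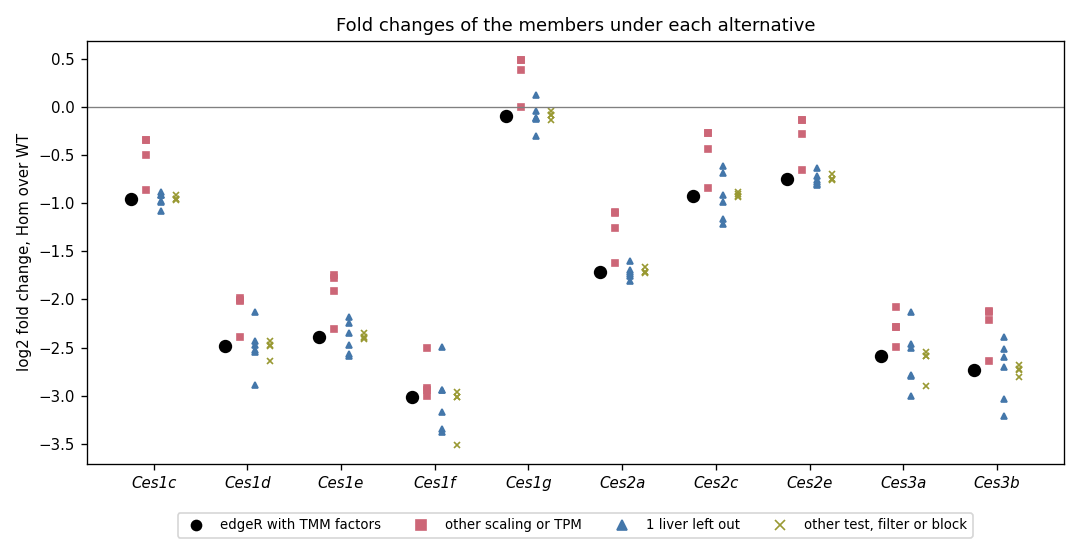
Log2 fold change of each carboxylesterase with edgeR and TMM factors (black), under other scalings or on the TPM scale, with 1 liver left out in turn, and under another test, filter or block. Members other than Ces1g stayed below 0 in all 15 alternatives, while Ces1g lay between −0.31 and 0.49.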

How the data were processed

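Liver RNA of 3 WT and 3 Hom mice was extracted with Trizol and sequenced by BGI Genomics on DNBSEQ. The submitters' processing notes name HISAT2 2.0.4, Bowtie2 2.2.5, RSEM 1.2.12 and the build mm9. Strandedness and read length are not given in the sources used here. The authors deposited estimated counts per gene and liver, made from the aligned reads and not normalized, together with FPKM and TPM. The authors' FPKM values were not used, nor were the authors' group means, whose names are crossed, or the deposited comparison columns of fold changes and p-values.

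Counts were rounded (65.9% were whole), filtered with filterByExpr, scaled by TMM and tested with edgeR 4.0.16 in R 4.3.3 (quasi-likelihood, Benjamini-Hochberg over all 13805 genes, threshold 0.05 with no minimum fold). SE was derived from the log2 fold change and F. CPM are TMM-normalized. The lowest chi-square per degree of freedom between livers of a group was 22.1, so no library was a repeat. On simulated counts in which 200 of 13169 tested genes had a log2 change of 1, 72% of these were recovered and 0.0925% of unchanged genes were called. The simulation had as many rises as falls and no shift in scaling between the groups, so it does not bear on the choice of scaling. The alternatives were DESeq2 1.42.0, library size alone, factors from the upper quartile, a minimum of 10 counts in each liver, no filter beyond 1 count, a minimum change of 1 (log2), limma 3.58.1 on log2(TPM + 1) and log2(TPM + 0.1), the replicate number as a block, and each liver left out.

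The members and lists were chosen with earlier results of these data known. Named were Nek7, the members, the other carboxylesterases, the largest rise and fall past the threshold of each list (up to 4 in each direction for the hydrolase, regulator and ER retention lists), Gusb, Hnf4a, Nr1h4, Nr1i2, Nr1i3 and the 3 genes most like Ces1c. Alb, Adipoq, Plin1 and the Y-linked genes are given as checks. Sequences and positions are from GENCODE M21 (GRCm38), 1 coding transcript per gene, matched by symbol for all 10 members.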

Additional observations from a re-analysis of the deposited data

How the results depend on the processing

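With 3 mice a group, members with a wide spread between livers (Ces1f, Ces3a, Ces3b) have the least precise fold changes, while depth is not limiting at 138 or more reads per member and liver. Of 150 comparisons of a member with an alternative, 132 kept their direction and side of the threshold, 10 lost the call, 3 gained it and 5, all of Ces1g, changed sign. The causes were not tested. The count of lower members was 6 with library size alone, on the TPM scale and with a minimum change of 1 (log2), 9 with DESeq2 and 7 to 9 with 1 liver left out (7 without WT replicate 2 or Hom replicate 3, 9 without WT replicate 1), and no member was higher in any. Nek7 ranged from −2.07 to −1.26 and was called in each.

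Lower and higher genes numbered 642 and 6574 with library size alone, 575 and 1825 with a minimum change of 1, 433 and 8368 by limma on log2(TPM + 1) and 431 and 8356 on log2(TPM + 0.1). With 1 liver left out, 1767 to 2750 were lower and 1986 to 3057 higher. The all-gene median became 0.45 with library size alone, and 0.50 and 0.61 by limma. Replicate numbers did not pair the mice (same-number correlations −0.11, −0.056 and −0.049). Blocking on it gave 2214 lower and 2383 higher genes, with 9 members lower (Ces2c gained the call) and Nek7 at −1.99. Signs turned for Ces1g (0.39 with library size alone, 5.8e-05 with upper-quartile factors, 0.48 and 0.49 by limma, and −0.31 to 0.12 with 1 liver left out, above 0 without Hom replicate 1) and Ces2g (0.13 with library size alone, 0.35 and 0.36 by limma). List medians turned for lipid hydrolases (0.31 with library size alone, 0.44 and 0.46 by limma), endothelial markers (0.24, 0.38 and 0.41), other ester hydrolases (0.11 with library size alone, 0.19 and 0.28 by limma), regulators (0.073, 0.24 and 0.24) and VLDL genes (0.11 by limma with either pseudocount). At 10 counts in every liver they turned for ER retention (−0.13), macrophage (−0.056) and lymphocyte (−0.12) genes, and with no filter for adipocyte markers (−1.25).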
